A study of Rattus norvegicus with 4 samples.

Results

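Macrophages spend L-arginine along competing routes. The nitric oxide synthases turn it into nitric oxide and citrulline, with tetrahydrobiopterin as a cofactor, and argininosuccinate synthase (Ass1) followed by argininosuccinate lyase (Asl) can rebuild arginine from that citrulline. The arginases Arg1 (cytosolic) and Arg2 (mitochondrial) instead split arginine into urea and ornithine, and ornithine decarboxylase (Odc1) makes the first polyamine from ornithine. In rodent macrophages Nos2 is a textbook marker of classical activation, by interferon gamma or bacterial products, and Arg1 of alternative activation, by IL-4 or IL-13.

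The 9 genes described here cover these routes: the cationic amino acid carriers Slc7a1 and Slc7a2, Nos2, the cofactor enzyme Gch1, Ass1, Asl, Arg1, Arg2 and Odc1. They were chosen by function, with earlier results of these data known. A probe counted as theirs when the RefSeq accession given for it in the array files, without its version, belongs to that rat gene. Through this match 8 of the 9 genes were named, by 11 probes, out of 16581 genes named by 21109 of the 45598 gene probes. Slc7a1 had no probe named in this way and was not analysed here.

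RNA came from NR8383 cells, a line of alveolar macrophages first washed out of the lung of a normal rat. The 4 samples form 1 group, a water control of 4 h; its titles add ALI, an abbreviation left unexplained there. By the labels the cells were at 20 passages, were grown in DMEM with 15% serum and 2 mM L-glutamine, and had been seeded for 48 h. The submitters describe the 4 as biological replicates, and each was hybridised to 1 one-colour array, all on 1 slide. No other condition was analysed here, so the genes are described by their detection, their level on each array and their spread between replicates, and the number of arrays limits the precision of each.

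The arrays gave the profile of a macrophage by the general macrophage markers. All 8 macrophage markers on the list were detected, as were 4 of 6 named markers of alveolar macrophages, the exceptions being Marco and Car4. None of 5 hepatocyte markers (Alb, Apoa1, Ttr, Cyp2e1 and Tat), none of 5 lung epithelium markers and none of 4 neutrophil markers was detected; 3 of 5 endothelial markers (Pecam1, Cdh5 and Vwf) and 1 of 4 fibroblast markers (Dcn) were. Over all named genes 51.0% were detected, not far from the share of the alveolar macrophage markers (66.7%) and of the endothelial ones (60%). The 75th percentile of spot intensity was 831 to 932 on replicates 1, 2 and 4 and 1237 on replicate 3.

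Of the 8 named arginine genes, 6 were detected, that is, well above background on all 4 arrays by at least 1 probe: Slc7a2, Nos2, Gch1, Asl, Arg1 and Odc1. Ass1 and Arg2 failed to stand well above background on each of the 4. By the same definition 51.0% of the 16581 named genes were detected. Over so few genes this share was not tested. The same 6 were detected with the looser positive and significant flag (60.4% of all named genes) and with the 99th percentile of the negative control spots as the limit (55.1%). They were also detected when 3 of 4 arrays sufficed (52.4%) and with outlier spots kept (51.1%). Both of these outcomes were fixed in advance. Ass1 and Arg2 were well above background on no array, and no spot of the 8 genes was flagged as an outlier. The looser flag could only have added Ass1 or Arg2. Each level is a log2 signal from which the 75th percentile of its own array was subtracted, so that 0 is that percentile, and is given as mean ± SD over 4 arrays. Probes differ in affinity, so the levels follow 1 probe across arrays and do not rank genes.

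**Figure D1:**
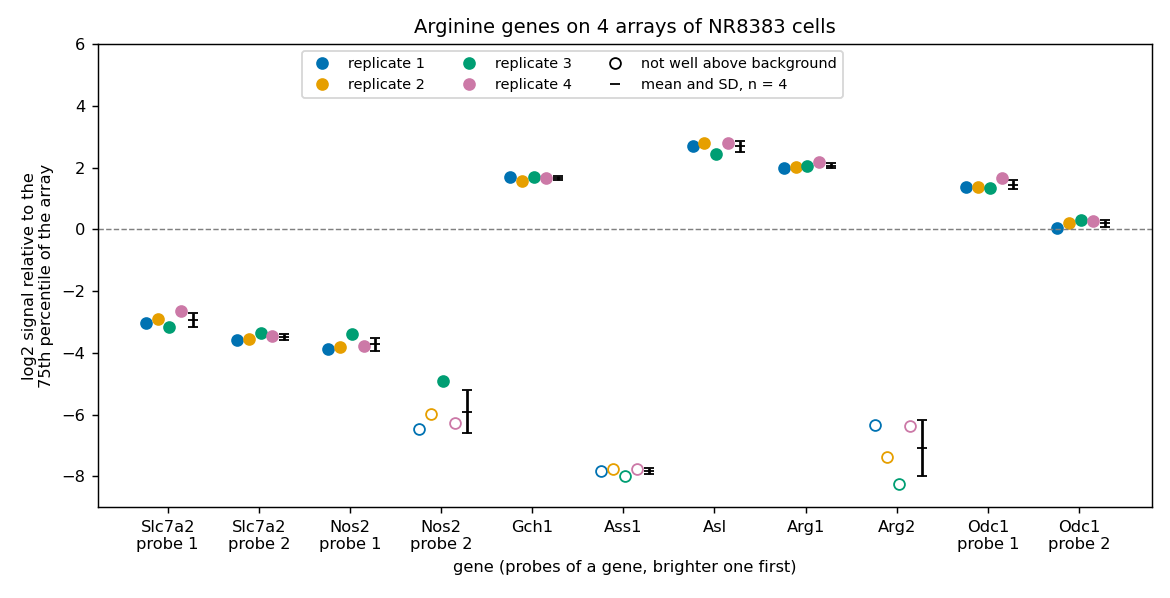
Log2 signal of each arginine probe minus the 75th percentile of its array (vertical axis, dashed line at 0), by gene (horizontal axis). Each point is 1 array, open where the spot was not well above background, and the black bar is the mean and SD over 4 arrays. The points of Gch1, Asl, Arg1 and the first Odc1 probe lie between 1.34 and 2.80 on every array, and those of Ass1 between -7.97 and -7.76, all open.

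Arginine enters the cell through cationic amino acid carriers. Slc7a2 encodes CAT2, a cationic amino acid carrier that activated macrophages use to take up arginine. Its brighter probe was at -3.04, -2.91, -3.16 and -2.65 on replicates 1 to 4 (-2.94 ± 0.22, SD, n = 4). Replicate 4 was the highest and replicate 3 the lowest, 1.42-fold apart. The other probe was at -3.60, -3.55, -3.35 and -3.45 (-3.49 ± 0.11), with replicate 3 the highest. Both probes were well above background on 4 of 4 arrays, yet they put replicate 3 at opposite ends. Their raw spot medians, 126 to 198, stood 2.86 to 4.22 times over the local background.

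Of the other 7 arginine or cationic amino acid carriers, 4 were detected. Slc3a2, the heavy chain that partners the light chains Slc7a6 and Slc7a7, was at 3.60 ± 0.23. Slc7a6 was at 0.28 ± 0.10 and Slc7a7 at -1.28 ± 0.38; with Slc3a2 they exchange arginine for neutral amino acids. Slc3a1, the heavy chain of the renal cystine and dibasic amino acid carrier, was at -3.84 ± 0.19. Its partner Slc7a9, the carrier Slc7a3 (CAT3) and Slc6a14 were not detected.

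On the nitric oxide route, Nos2, the inducible synthase, was detected by 1 of its 2 probes. That probe read intensities of 60.0, 65.9, 117 and 60.0 on replicates 1 to 4, or -3.87, -3.82, -3.40 and -3.79 on the log2 scale (-3.72 ± 0.22). Replicate 3 stood above the other 3 arrays, and the highest and lowest were 1.39-fold apart. The raw spot median was 110 to 116 on replicates 1, 2 and 4 and 170 on replicate 3, over a local background of 35 to 39.

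The other Nos2 probe read intensities of 9.85, 14.9, 40.9 and 10.7, or -6.48, -5.97, -4.92 and -6.28 on the log2 scale. It was well above background on replicate 3 alone. Both Nos2 probes thus had their highest value on replicate 3, the array with the brightest 75th percentile. Without scaling between arrays replicate 3 stood at -3.03 for the brighter probe and the others at -3.86 or lower. With quantile normalization it was at -3.35 against -3.88 to -3.83. With normexp background correction of the raw median signal it was at -2.75 against -2.91 to -2.79, and the span over arrays was 0.16 in place of 0.48. Over all 8456 detected genes the median deviation on replicate 3 was -0.03, and over the 2540 of them with a mean below -2 it was -0.02. The part of the array's brightness in the Nos2 value was not tested. The neuronal and endothelial synthases Nos1 and Nos3 were not detected.

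**Figure D2:**
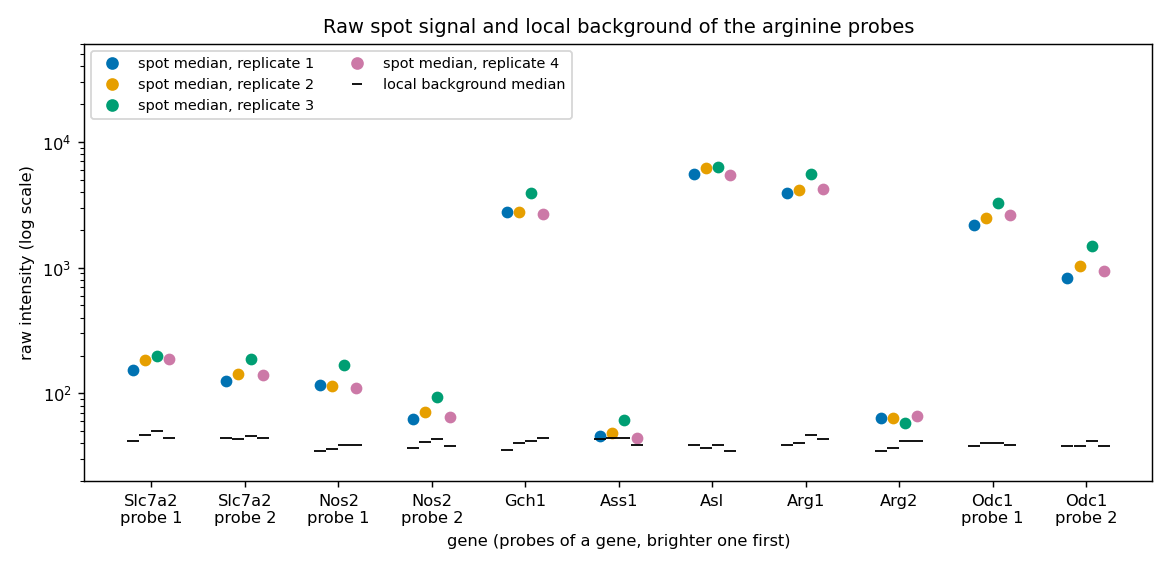
Raw median intensity of each arginine spot (points, 1 per array) and its local background median (black dashes) on a log axis, by gene and probe. The brighter Nos2 probe lies at 110 to 170 over a background of 35 to 39, the Ass1 probe at 44 to 61 over 39 to 44.5, and Asl and Arg1 at 3921 and above.

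Gch1, the GTP cyclohydrolase that starts and limits tetrahydrobiopterin synthesis, was detected with close values on the 4 arrays. It was at 1.71, 1.58, 1.70 and 1.65 on replicates 1 to 4 (1.66 ± 0.06), a span of 0.13. Of the genes tested, 91.4% had a larger SD between arrays, a rank over genes of all signal levels. The SD fitted at its signal in the variance test below was 0.12. Without scaling between arrays its SD was 0.28, against a median of 0.27 over all genes tested.

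The rest of the cofactor route was detected throughout: 5 of 5 other tetrahydrobiopterin genes with a named probe were well above background on all arrays. Pts, the second synthesis step, was at -1.84 ± 0.02, and Spr, the last step, at -1.33 ± 0.14. Gchfr, the feedback regulator of Gch1, was at -1.89 ± 0.15. Qdpr, which regenerates the cofactor, was at 3.06 ± 0.05, and Pcbd1, which dehydrates the used cofactor, at -4.66 ± 0.20.

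Of 10 genes that control nitric oxide synthase, 8 were detected. Among them were Nosip and Nostrin, which bind the endothelial enzyme (0.65 ± 0.17 and -2.64 ± 0.09), and Ddah2, of the family that clears methylated arginine inhibitors (-1.57 ± 0.15). Ddah1 and Agxt2 were not detected. Calm2 and Calm3, which encode the synthase partner calmodulin, were both detected, Calm2 by 1 of its 2 probes. On the receiving side stands soluble guanylate cyclase, the nitric oxide receptor. None of its 3 listed genes (Gucy1a1, Gucy1a2 and Gucy1b1) was well above background on any array. Nor were Prkg1 and Pde5a, which act on the cyclase product cyclic GMP. Adh5, which clears S-nitrosoglutathione, was at 2.14 ± 0.06, and Cyb5r3, a reductase, at 0.85 ± 0.08.

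The 2 enzymes that recycle citrulline were not detected together. Asl, the second enzyme, read intensities of 5756, 6481, 6713 and 5792 on replicates 1 to 4, or 2.71, 2.80, 2.44 and 2.80 on the log2 scale (2.69 ± 0.17). Replicate 3 was the lowest after scaling although its intensity was the highest, and the span was 1.28-fold.

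Ass1, the first and rate-limiting enzyme, read intensities of 3.86, 4.31, 4.92 and 3.79 by its only named probe. These lay below the 99th percentile of the negative control spots on each array (13.7, 9.20, 7.83 and 8.95) and below the dimmest gene spot that was well above background there (19.2, 21.5, 20.7 and 18.1). The raw spot median was 1.07 to 1.37 times the local background. The spot was positive and significant, the looser flag of the extraction software, on replicate 3 alone. With 1 probe, a missing transcript and a probe that does not report it cannot be told apart.

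Arg1, the cytosolic arginase, read intensities of 3509, 3772, 5091 and 3743 on replicates 1 to 4, or 2.00, 2.02, 2.04 and 2.17 on the log2 scale (2.06 ± 0.08). Replicate 4 was the highest and the span was 1.13-fold. Of the genes tested, at all signal levels, 84.4% had a larger SD, and the SD fitted at its signal was 0.12. Without scaling between arrays its SD was 0.24, against a median of 0.27 over all genes tested. The spot stood 98.7 to 119 times over its local background.

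Arg2 read intensities of 10.8, 5.59, 4.06 and 10.1 by its only named probe and was not well above background on any array. Replicate 3 was the lowest, with replicates 1 and 4 close together at the top. The spot passed the looser flag on replicates 1, 2 and 4, and it passed the 99th percentile of the negative controls on replicate 4 alone. Of the 2 arginases, therefore, the cytosolic one was detected and the mitochondrial one had no array well above background.

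The rest of the urea cycle, which runs in liver, was mostly not detected. Cps1, Otc and Nags, its mitochondrial enzymes, were not detected, and the ornithine carrier Slc25a2 was well above background on replicate 3 alone. The ornithine carrier Slc25a15 was detected at -0.39 ± 0.16, by 2 of 3 probes.

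Ornithine feeds polyamine and proline synthesis. Odc1, the first and regulated enzyme of polyamine synthesis, was detected by both of its probes. The brighter one was at 1.39, 1.39, 1.34 and 1.65 on replicates 1 to 4 (1.44 ± 0.14), with replicate 4 above the others and a 1.24-fold span from the highest to the lowest array. The other one was at 0.05, 0.19, 0.29 and 0.27 (0.20 ± 0.11), with replicate 1 the lowest. The probes did not single out the same array.

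Of 5 other genes on the polyamine synthesis list with a named probe, 4 were detected. These were Amd1, which supplies the aminopropyl groups (2.03 ± 0.15), the spermidine synthase Srm (2.35 ± 0.17, by 4 of 4 probes), the spermine synthase Sms (0.35 ± 0.04, by 3 of 3 probes) and Agmat, a hydrolase of decarboxylated arginine (-3.98 ± 0.23). Azin2 was not detected. The Odc1 inhibitors Oaz1 (5.74 ± 0.18) and Oaz2 (2.19 ± 0.35) and their antagonist Azin1 (-0.42 ± 0.22) were detected, and Oaz3 was not.

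Of 5 genes of polyamine breakdown and transport with a named probe, 4 were detected, including the acetyltransferase Sat1 (0.33 ± 0.11) and the lysosomal polyamine exporter Atp13a2 (0.96 ± 0.23). The spermine oxidase Smox was well above background on replicates 1 and 2 alone. All 3 hypusine genes were detected, namely Eif5a, which carries this spermidine-derived residue (4.72 ± 0.10), Dhps (-1.29 ± 0.19) and Dohh (4.62 ± 0.18). Of 7 genes that link ornithine to proline and glutamate, 6 were detected, among them Oat, the ornithine aminotransferase (2.11 ± 0.10), and Pycr1, a proline-forming reductase (-4.90 ± 0.22, by 1 of 2 probes), while Prodh was not. Of the 4 creatine genes, Gatm, which uses arginine, was not detected, and Gamt was, at 1.89 ± 0.16.

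All 12 genes listed as inducers of Nos2 or Arg1 were detected. On the classical side these were the interferon gamma receptor chains Ifngr1 (2.55 ± 0.23) and Ifngr2 (1.08 ± 0.08), Irf1 (1.09 ± 0.12), Tlr4, Nfkb1 and Rela. On the alternative side they were Il4r, Il13ra1 (-1.05 ± 0.17), Stat6 (-1.05 ± 0.05) and Cebpb (5.10 ± 0.10, by 2 of 2 probes), and Hif1a and Myc completed the list.

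Across all lists, leaving out the 9 genes themselves, 55 of 76 genes with a named probe were detected, 2 on some arrays and 19 on none, against 51.0% of all named genes. The other 4 of the 80 listed genes had no named probe. Many of the listed genes serve nearly every cell, and the lists were not tested.

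**Figure D3:**
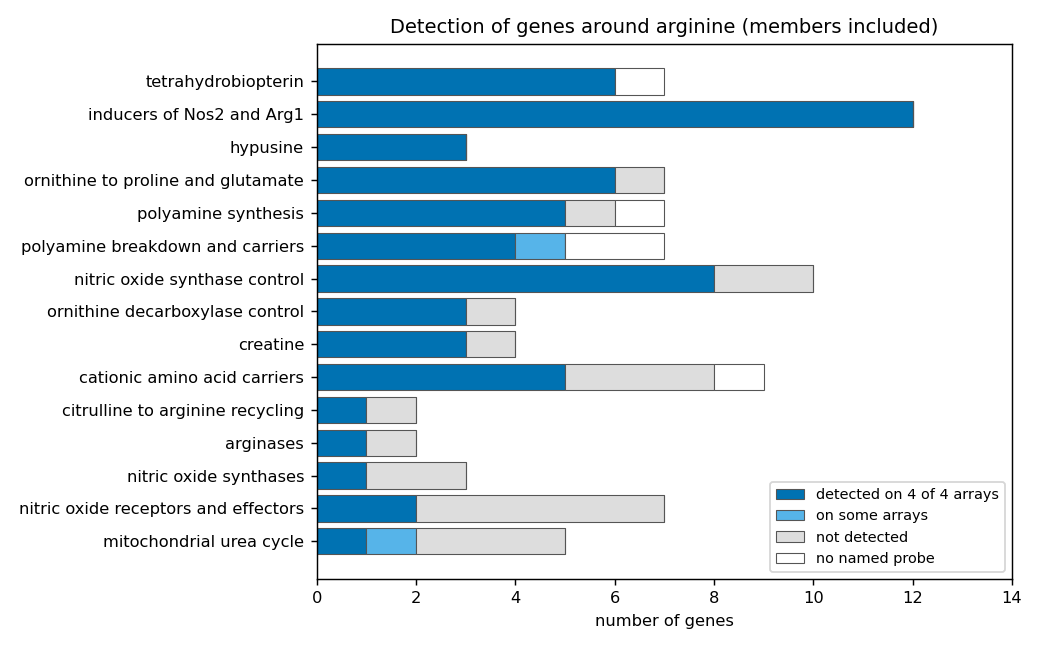
Number of genes in each list around arginine (horizontal axis) by detection, with the 9 arginine genes included in their lists. All 12 inducers and all 6 tetrahydrobiopterin genes with a named probe were detected, against 1 of 5 mitochondrial urea cycle genes and 2 of 7 nitric oxide receptor and effector genes.

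None of the 6 detected arginine genes passed the test of variation between replicates. It compared a gene's residual variance with the one limma fitted at its signal, over 8456 detected genes. In this test 20 genes, or 0.237%, passed at an adjusted p of 0.05, and 0 of the 6 did; all 6 had an adjusted p of 0.995 (limma, Benjamini-Hochberg), and 0 had an unadjusted p under 0.05. The fit without trend or robust fitting also called 0. With so small a share called over all genes, 0 of 6 does not set these genes apart. The smallest unadjusted p belonged to Asl, whose SD of 0.17 compared with a fitted 0.12 (adjusted p = 0.995, limma). Nos2, with an SD of 0.22, lay under the 0.245 fitted at its signal.

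**Figure D4:**
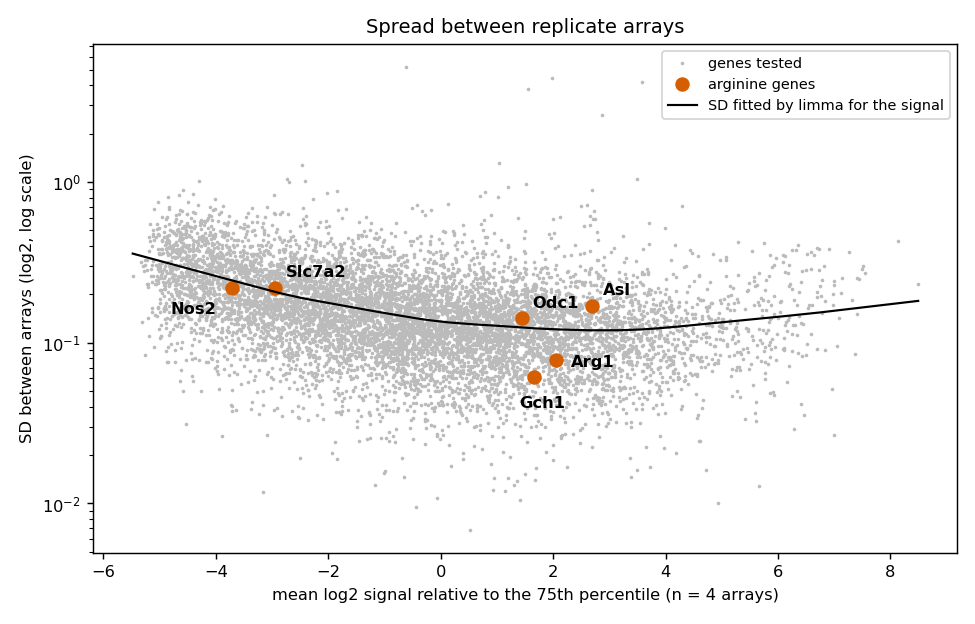
SD between arrays (log axis) against mean log2 signal (n = 4 arrays) for the 8456 genes tested (grey) and the 6 detected arginine genes (orange), with the SD fitted by limma for the signal (line). Gch1 and Arg1 lie under the line at SDs of 0.06 and 0.08, and Nos2 and Slc7a2, both dim, lie near it at 0.22.

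No detected arginine gene spanned more than 2-fold between its highest and lowest array, against 3.26% of the genes tested, where the brightest probe sets the level. At so small a share, 0 of 6 does not set the arginine genes apart from the rest. Averaged over both probes Nos2 spanned 1.02 (log2), just over 2-fold; its second probe, well above background on 1 array, spanned 2.95-fold. Their median SD was 0.16, against 0.14 over all genes tested and 0.17 over the 55 other detected genes of the lists. Which median was larger changed with the setting. Without replicate 3 the median SD of the arginine genes was 0.081 against 0.13 over all genes tested, and without replicate 4 it was 0.10 against 0.12. It was also the smaller one with no scaling (0.22 against 0.27), with quantile normalization (0.13 against 0.14) and with the mean of all named probes (0.11 against 0.15). The same held with normexp (0.121 against 0.123) and with no filter on dim probes (0.16 against 0.22), which adds dim genes to the comparison. It was the larger one with outlier spots kept (0.16 against 0.14) and without replicate 1 (0.19 against 0.15) or replicate 2 (0.18 against 0.14). Among the 55 listed genes 6 (10.9%) had an unadjusted p under 0.05, against 6.30% of all genes tested, and 0 passed after adjustment. The smallest adjusted p among the 55 was 0.157 (limma), for Calm2, which was detected by 1 of its 2 probes.

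**Figure D5:**
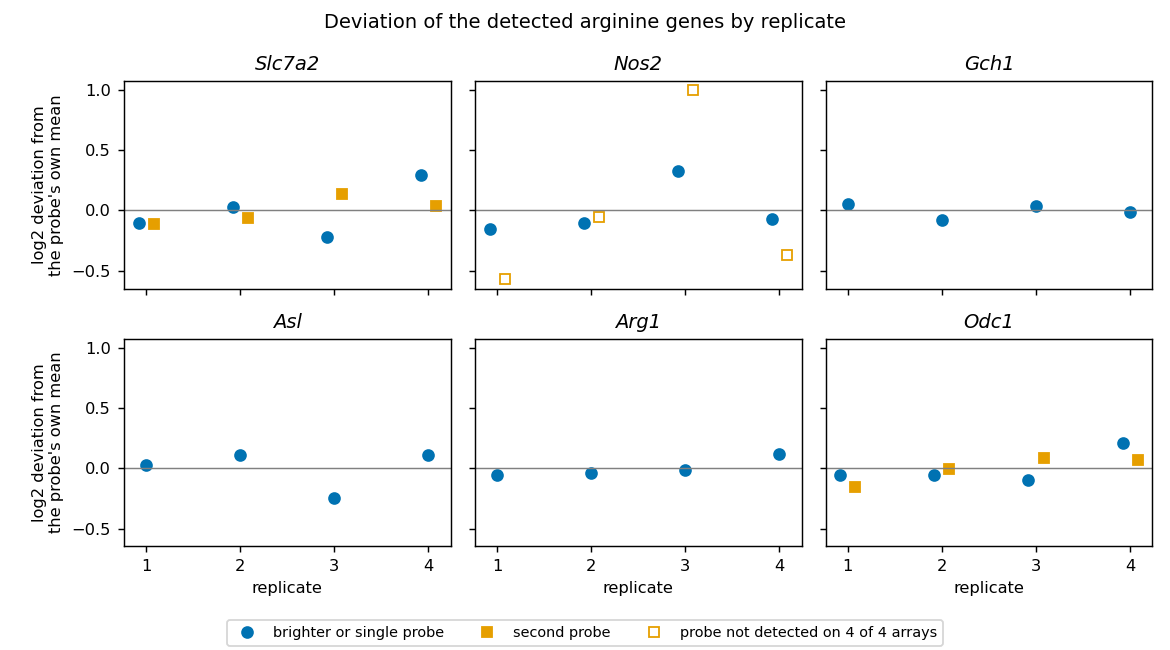
Log2 deviation of each probe from its own mean on replicates 1 to 4, for the 6 detected arginine genes (circles for the brighter or single probe, squares for the second probe, open where a probe was not well above background on all arrays). On replicate 3 both Nos2 probes lie above 0, by 0.32 and 0.99, and the brighter Slc7a2 and Asl probes lie below it, by -0.22 and -0.25.

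The Arg1 and Nos2 probes were also compared within each array. The difference of their signals within an array does not depend on the scaling of that array, and since the probes differ its size is no ratio of transcripts. About its own mean the Arg1 minus Nos2 difference was 0.09, 0.06, -0.34 and 0.19 on replicates 1 to 4, an SD of 0.23. Replicate 3 had the smallest difference, except with normexp, where replicate 1 had it by a narrow margin over replicate 3. Without replicate 3 the SD was 0.065. With normexp on the raw median signal it was 0.10, and with the mean of both Nos2 probes it was 0.47, a value that includes a probe not well above background on 3 of 4 arrays. Among the 15 pairs of detected arginine genes the SD of the difference ran from 0.07 for Arg1 and Odc1 to 0.39 for Nos2 and Slc7a2.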

How the data were processed

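The authors deposited 1 file per Cy3 array, written by Agilent Feature Extraction 11.0.1.1 per the file headers. The authors' deposited values are intensities: a processed signal with its error, raw medians of spot and local background, and other columns of 0 or 1 flags per spot, which the authors deposited unscaled between arrays. RNA input was 100 ng.

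Control spots were left out. Spots of a probe were averaged as log2 without those flagged as outliers (1.11% to 1.45%; 0 saturated), minus the log2 of the array's 75th percentile. Probes were named by RefSeq accession through the table of assembly GRCr8; the header names another build, so no coordinates are given. For a gene with several probes the brightest gave the level. A probe counted as well above background on an array when over 50% of its spots did.

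Variation was tested with limma 3.58.1 (R 4.3.3): an intercept-only fit, eBayes with trend and robust fitting, an upper-tail F test of the residual variance, and Benjamini-Hochberg adjustment over all 8456 genes at 0.05. It was tested on simulated data. Figures used matplotlib 3.10.9. By the rule for naming, the text could give any gene of the lists; a few are not reported here or counted. The genes and lists were chosen with earlier results of these data known. The alternatives concerned the detection flag, arrays required, scaling, background, probes, filters, the fit and leaving out each replicate.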

Additional observations from a re-analysis of the deposited data

Results flagged for a closer look

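Among 66 sets of 4 values (11 arginine probes and 55 detected listed genes), 6 had 1 array apart from the other 3 by more than Dixon's critical ratio for 4 values. Chance gives about 1 in 20. The share of all genes tested past this ratio is not given here, so the 6 are not read as an excess. The brighter Nos2 probe stood at -3.40 on replicate 3, with the other arrays at -3.87 to -3.79. The brighter Odc1 probe stood at 1.65 on replicate 4, with the other arrays at 1.34 to 1.39, while the second Odc1 probe was not apart there. Calm2 stood at -2.69 on replicate 4, with the other arrays at -1.43 to -1.27. These values are from the brighter of its 2 probes, of which 1 was detected on all arrays. Calm3 stood at 3.65 on replicate 3, with the other arrays at 3.90 to 3.93. Gamt stood at 1.65 on replicate 3, with the other arrays at 1.96 to 1.99. Gchfr, the regulator of Gch1, stood at -1.67 on replicate 4, with the other arrays at -1.98 to -1.95. Of these 6, replicate 3 or replicate 4 was the array apart in each.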

How the results depend on the processing

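The same 6 arginine genes were detected under all 9 alternatives for detection. Where fewer arrays were required or a replicate was left out, this was fixed in advance. Genes well above background on all 4 arrays had to pass there, and Ass1 and Arg2, well above it on no array, could not. It was also fixed with outlier spots kept, since no spot of these genes was flagged. The same holds where the brightest probe decides, since that probe of each of the 6 was well above background on all 4 arrays. Only the positive and significant flag, which is looser, and the negative controls could have changed a call. Ass1 and Arg2 counted as detected on some arrays with the positive and significant flag, and Arg2 also with the negative controls. The other listed genes detected numbered 55 to 60. No arginine gene passed the limma variance test under any of its 11 alternatives, with 0 at an unadjusted p under 0.05 in each and adjusted p from 0.950 to 0.999 for the 6 detected genes. Leaving out each replicate in turn moved the median SD of the arginine genes between 0.081 and 0.19 and the SD of Arg1 minus Nos2 between 0.065 and 0.28. That SD was 0.10 with normexp and 0.47 with the mean of all named probes, which brings in the Nos2 probe that was well above background on 1 array; normexp moved the mean level of Nos2 from -3.72 to -2.82, and the mean of its probes moved it to -4.82. The genes called by limma over the whole array ranged from 3 (without replicate 3) to 79 (with no filter on dim probes). No paired analysis was possible because the series holds 1 group. Signal over background limits Nos2 and Slc7a2. For Ass1 and Arg2, with 1 named probe each, only the signal of that probe has an upper bound, not the transcript.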

Other observations

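The arginine genes Slc7a2, Odc1 and Nos2 have a pair of named probes each. The brighter minus the dimmer probe gives a value that a constant scaling of an array cannot move. For Slc7a2 and Odc1, whose probes were all detected on 4 of 4 arrays, that difference was smallest on replicate 3: 0.19 for Slc7a2 against 0.56 to 0.80 on the others, and 1.06 for Odc1 against 1.19 to 1.38. For Nos2 it was 2.61, 2.15, 1.52 and 2.49 on replicates 1 to 4, also smallest on replicate 3. The dimmer Nos2 probe was well above background on that array alone. Over the 1754 genes with several probes detected on all 4 arrays, the difference between the brightest and the dimmest was smallest on replicate 3 in 27.5%, and its median deviation there was -0.01. This comparison was chosen after the values were seen and was not tested.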
